A study of Mus musculus with 2 samples.

Results

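Epithelial junctions, desmosomes and keratins were examined in small intestine from IL-9 transgenic (IL-9Tg) and wild-type (WT) mice. They were represented by 41 genes, of 18194 that have a probe set of their own name on the array. The 41 genes were chosen by name, with earlier results of these data known. They are 22 of the tight junction, 5 of the adherens junction and epithelial adhesion, 8 of the desmosome, 5 keratins and 1 gap junction gene. All 41 were on the array with 93 probe sets, and a probe set is a group of short probes aimed at a single transcript. The IL-9Tg animals carried an IL-9 transgene, the WT animals did not, and both were untreated mice of BALB/c background aged 6 to 8 weeks. RNA of 3 mice was pooled for each of the 2 arrays, so there was 1 array per genotype, and the spread between mice could not be estimated. No difference below has a replicate check, and no p-value is given. The labels do not name the promoter that drives the transgene or the cells that express it.

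Epithelial cells are held together by a series of junctions along their sides. The tight junction lies nearest the lumen, where claudins set which ions and small molecules pass between cells, with occludin and the junctional adhesion molecules beside them, and ZO proteins and other scaffolds tie them to actin. Below it, E-cadherin and the catenins form the adherens junction, and desmosomal cadherins, plakoglobin, plakophilins and desmoplakin anchor the keratin filaments. The arrays measured RNA, and neither junction proteins nor their place in the cell were measured. In whole tissue, fewer cells of a type and less RNA per cell cannot be told apart.

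The values are intensities on a linear scale. Where a gene has several probe sets, the brightest by the mean of both arrays represents it, and differences are those of log2(intensity + 1), IL-9Tg minus WT. Differences of dim genes are understated on this scale. A probe set passed the filter when the higher of its 2 values reached the median of all values, an intensity of 78.5. Of the 41 genes, 38 passed, each of them in both pools, with 75 probe sets. Just inside the filter lay Cgnl1, at 112 in the IL-9Tg pool and 102 in the WT pool, and just outside it Jam3, at 62.2 in the IL-9Tg pool and 55.4 in the WT pool. Cldn1 (27.1 in the IL-9Tg pool, 26.3 in the WT pool) and Cldn8 (19.6 in the IL-9Tg pool, 21.9 in the WT pool), claudins with a sealing role in other epithelia, also lay below it. Enterocyte markers had a summed intensity of 148665 in the IL-9Tg pool and 155720 in the WT pool, and all 10 of the 11 listed that were named on the array passed the filter. Of 9 markers of stratified epithelium 8 were named on the array and 2 passed, Krt5 and Krt10. Krt4 read 65.4 in the IL-9Tg pool and 49.7 in the WT pool, and Krt14, Krt13, Krt1, Ivl and Trp63 were also below the filter in both pools (these 6 fall outside the rule for naming genes).

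None of the 38 genes differed by 2-fold, a size that 96 of the 11862 genes past the filter reached (0.809%). By their representing probe sets, adherens and desmosome genes were on balance slightly lower in the IL-9Tg pool, while tight junction genes lay on both sides of 0. For the desmosome genes this did not hold when probe sets were averaged, as given below. In the tight junction, 13 of 19 genes lay above 0 and 6 below, with a median of 0.04 on the log2 scale. All 5 adherens genes lay below 0, with a median of -0.20, as did 7 of 8 desmosome genes, also with a median of -0.20. Of the 5 keratins 2 lay above 0 and 3 below, with a median of -0.07. Over all genes that passed, 51.4% lay above 0 and 47.6% were below it, with a median of 0.01, and the middle 95% of differences ran from -0.49 to 0.50. The tight junction median exceeded that of the 18 adherens, desmosome and keratin genes together by 0.24. When the probe sets past the filter were averaged for each gene, this gap was 0.12 and the desmosome median was 0.01, so the place of the desmosome genes depends on which probe set is read. At the smaller size of 0.3 on the log2 scale, which is 1.23-fold, genes were counted by their representing probe sets. Of the 38 genes, 2 were higher (Cldn4 and Krt18) and 4 were lower (Dsp, Cldn12, Pkp2 and Ctnna1). The further Pkp2 probe sets past the filter lay above 0. Counted over all 75 member probe sets past the filter, 12 were higher by that size and 8 were lower. In the desmosome genes, 5 of 19 probe sets were higher and 4 were lower. The balance of these counts therefore depends on which probe sets are read. Among all genes past the filter 9.38% were higher by that size and 8.98% were lower.

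**Figure D1:**
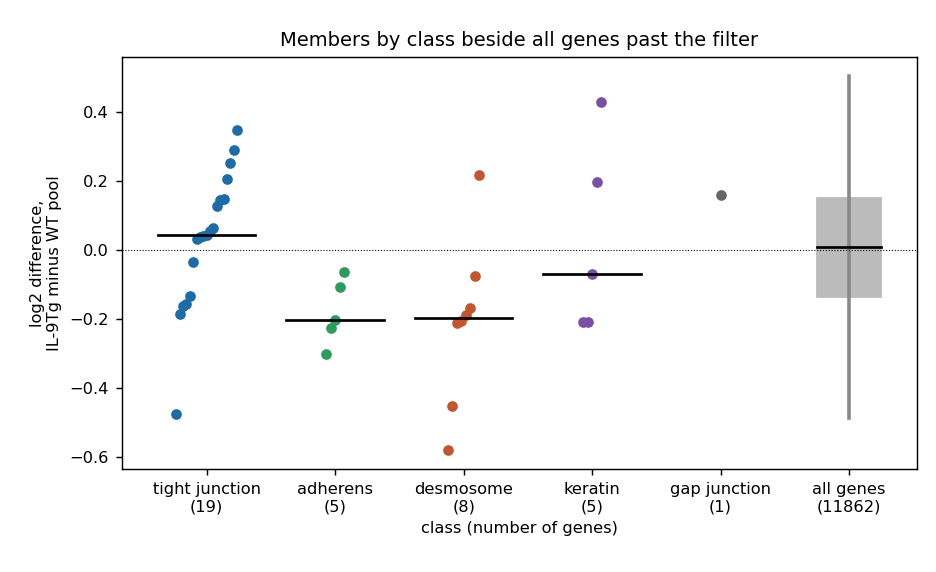
Log2 difference, IL-9Tg minus WT pool, of the representing probe set of each member gene past the filter (points) by class, with the class median as a bar. Further probe sets are not shown here, and with probe sets averaged the desmosome median was 0.01. The last column gives all 11862 genes past the filter as median, middle 50% (box) and middle 95% (line), and all 5 adherens points and 7 of 8 desmosome points lie below 0.

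Claudins are the pore and barrier proteins of the tight junction, and 7 of the 9 listed passed the filter. Cldn4, a claudin that restricts sodium passage in cultured epithelia, read 738 in the IL-9Tg pool and 580.1 in the WT pool, a difference of 0.35 from its only probe set. Cldn15, which forms cation pores needed for sodium recycling in the mouse small intestine, read 5131 in the IL-9Tg pool and 4195 in the WT pool, a difference of 0.29. Both were higher in the IL-9Tg pool, by 1.27-fold and 1.22-fold. Cldn12, an atypical claudin linked to calcium passage, had the lowest difference among the claudins. It read 634 in the IL-9Tg pool and 882 in the WT pool with one probe set, a difference of -0.48, and 272 in the IL-9Tg pool and 323 in the WT pool with the other, a difference of -0.24. Both probe sets were therefore lower in the IL-9Tg pool, and Cldn12 was 1.39-fold lower by the brighter of them. Cldn7, a claudin that also sits along the lateral membrane and binds Epcam, read 7658 in the IL-9Tg pool and 8578 in the WT pool. Cldn23, found in differentiated gut epithelium, read 682 in the IL-9Tg pool and 616 in the WT pool. These claudins differed by -0.16 and 0.15.

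Cldn3, a sealing claudin, has 4 probe sets past the filter, all of them higher in the IL-9Tg pool. The probe set that represents the gene read 5236 in the IL-9Tg pool and 5123 in the WT pool, a difference of 0.03. The other Cldn3 probe sets read 5597, 5461 and 2759 in the IL-9Tg pool, against 4561, 4539 and 2016 in the WT pool, differences of 0.30, 0.27 and 0.45. Under quantile normalization of the arrays the representing probe set lay at -0.0049, so its sign is not settled. Cldn2, the cation and water pore of leaky epithelia, read 484 in the IL-9Tg pool and 497 in the WT pool with its brighter probe set. The dimmer Cldn2 probe set read 134 in the IL-9Tg pool and 98.8 in the WT pool, a difference of 0.44, so its probe sets gave different pictures.

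Cldn3 and Cldn4 lie next to each other on chromosome 5, with 0 protein-coding genes between them in the RefSeq table. Their RefSeq promoters are shown because Cldn4 had the highest difference among the representing probe sets of the tight junction genes, and Cldn3 is its neighbour. Each sequence is the 250 bases before the gene's start, 5′ to 3′, and capitals mark any motif found on either strand. The motifs searched were the GC box GGGCGG, the E-box CACCTG of the kind bound by Snail and Zeb repressors, the TATA box TATAAA and the CCAAT box, whose letters are its name. They do not overlap in the windows shown.
Cldn4 (GRCm38.p6, chr5:134946935-134947184, minus strand): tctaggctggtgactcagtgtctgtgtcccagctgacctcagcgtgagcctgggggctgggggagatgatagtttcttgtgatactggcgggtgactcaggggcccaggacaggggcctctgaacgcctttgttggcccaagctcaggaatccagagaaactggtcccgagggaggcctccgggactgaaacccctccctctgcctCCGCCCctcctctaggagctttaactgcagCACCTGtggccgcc
Cldn3 (GRCm38.p6, chr5:134985964-134986213, plus strand): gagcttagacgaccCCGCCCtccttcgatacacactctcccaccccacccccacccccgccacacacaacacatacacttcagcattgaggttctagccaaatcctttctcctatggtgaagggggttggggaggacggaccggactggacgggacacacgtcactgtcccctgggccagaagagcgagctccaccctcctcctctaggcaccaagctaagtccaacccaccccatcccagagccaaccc
The Cldn4 window holds 1 GC box and 1 E-box, the Cldn3 window holds 1 GC box, and neither holds a TATA box or a CCAAT box. Of 32851 promoter windows of this length in the table, 32.7% hold a GC box, 17.2% this E-box, 33.8% a CCAAT box and 12.4% a TATA box. A match describes the letters only.

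**Figure D2:**
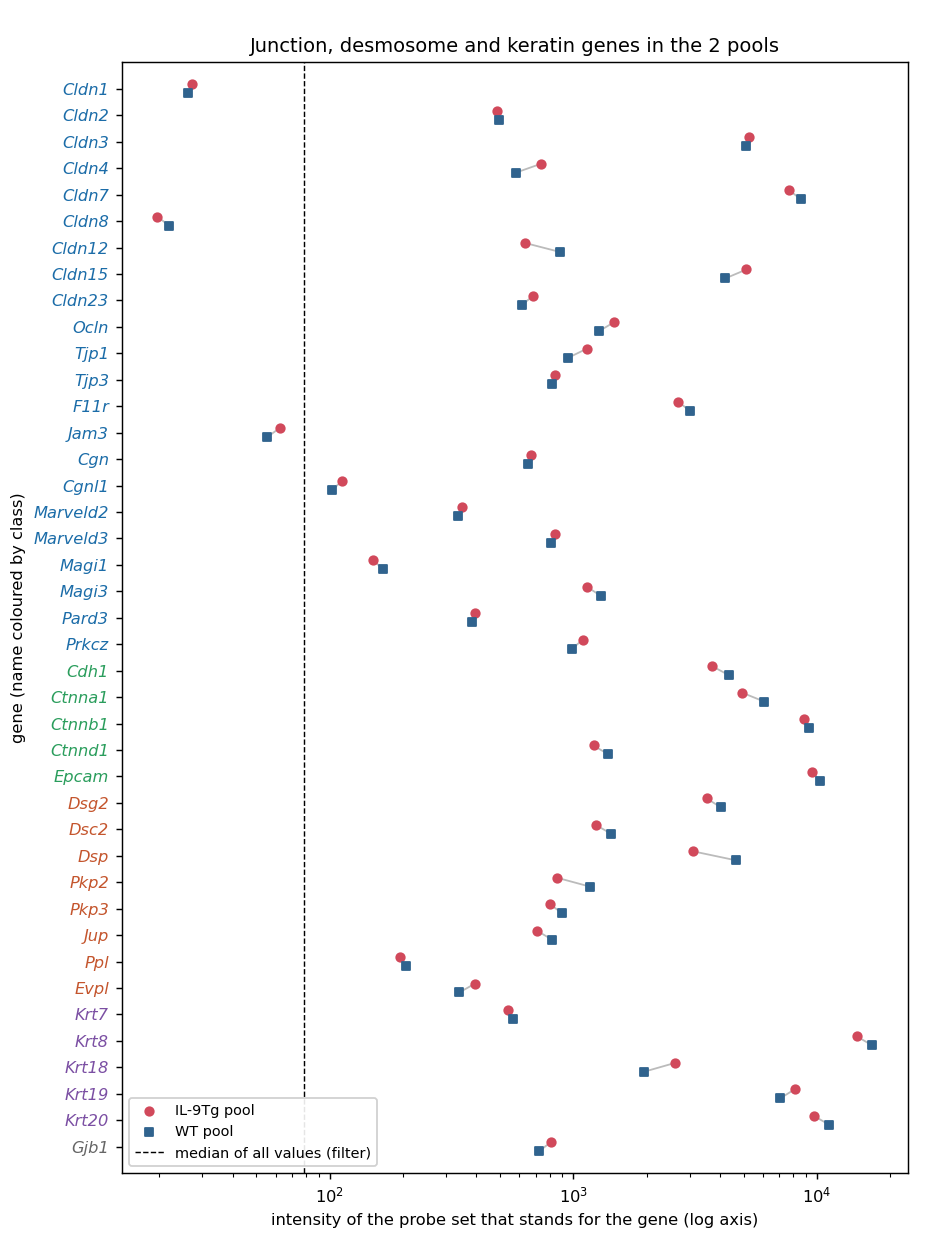
Intensity (log axis) of the probe set that represents each of the 41 genes, in the IL-9Tg pool (red circles, upper) and in the WT pool (blue squares, lower), with gene names coloured by class in the order tight junction, adherens, desmosome, keratin and gap junction. The paired points lie close together for all genes, Dsp, Pkp2 and Cldn12 stand lower in the IL-9Tg pool, and Cldn1, Cldn8 and Jam3 lie left of the dashed filter line. The further Pkp2 probe sets past the filter, not shown here, were higher in the IL-9Tg pool. Probe sets differ in binding, so levels of different genes are not comparable.

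The other membrane proteins of the tight junction differed little. Ocln, occludin, read 1464 in the IL-9Tg pool and 1271 in the WT pool with its brighter probe set, a difference of 0.20. The second Ocln probe set read 745 in the IL-9Tg pool and 883 in the WT pool, a difference of -0.25. The probe sets of Ocln therefore lay on opposite sides of 0, and no direction is given for it. Marveld2, tricellulin, which seals the corners where cells meet, read 350.2 in the IL-9Tg pool and 335 in the WT pool, a difference of 0.06. Marveld3, the third member of the occludin family, read 843 in the IL-9Tg pool and 813 in the WT pool, a difference of 0.05, while its second probe set lay at -0.15. F11r, junctional adhesion molecule A, read 2691 in the IL-9Tg pool and 2999.5 in the WT pool, a difference of -0.16, with 0.09 in its dim second probe set.

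Among the representing probe sets of the scaffold and polarity genes, that of Tjp1 had the highest difference. Tjp1, the ZO-1 scaffold that links claudins and occludin to actin, read 1133 in the IL-9Tg pool and 952 in the WT pool, a difference of 0.25 from its only probe set. Tjp3, ZO-3, read 844 in the IL-9Tg pool and 819 in the WT pool, a difference of 0.04. Cgn, cingulin, read 668 in the IL-9Tg pool and 651 in the WT pool, and its second probe set lay at -0.22. Cgnl1, paracingulin, differed by 0.13 and 0.08 in its 2 probe sets past the filter. Magi3 and Magi1, membrane-associated guanylate kinase scaffolds, differed by -0.19 and -0.13, but the further probe sets of Magi3 lay at 0.26 and 0.14. Pard3, a polarity scaffold, differed by 0.04, with its further probe sets past the filter at 0.08 and -0.04. Prkcz, the atypical protein kinase C of the same complex, read 1092 in the IL-9Tg pool and 988 in the WT pool, a difference of 0.14, with its further probe sets at -0.11 and -0.19. Among the 12 tight junction genes past the filter other than claudins, 9 lay above 0 by their representing probe sets, which ran from -0.19 to 0.25.

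The adherens genes were the only class of more than 1 gene with all its representing probe sets on one side of 0. Cdh1, E-cadherin, read 3709.6 in the IL-9Tg pool and 4343 in the WT pool, a difference of -0.23 from its only probe set. Ctnna1, alpha-catenin, which couples the cadherin complex to actin, read 4917, 5211 and 419 in the IL-9Tg pool, against 6069, 5659 and 542 in the WT pool, differences of -0.30, -0.12 and -0.37. Its 3 probe sets past the filter were all lower in the IL-9Tg pool. Ctnnd1, p120-catenin, which holds E-cadherin at the membrane, also had 3 probe sets lower, at -0.20, -0.07 and -0.34. Epcam, an epithelial adhesion molecule that binds claudin-7 and is no cadherin complex protein, read 9554 in the IL-9Tg pool and 10294 in the WT pool, and its 2 probe sets differed by -0.11 and -0.15. Ctnnb1, beta-catenin, was the exception. Its 3 probe sets read 8872, 3062 and 1413 in the IL-9Tg pool, against 9270, 2376 and 962 in the WT pool. The brightest lay at -0.06 and the others at 0.37 and 0.55, so no direction is given for it.

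**Figure D3:**
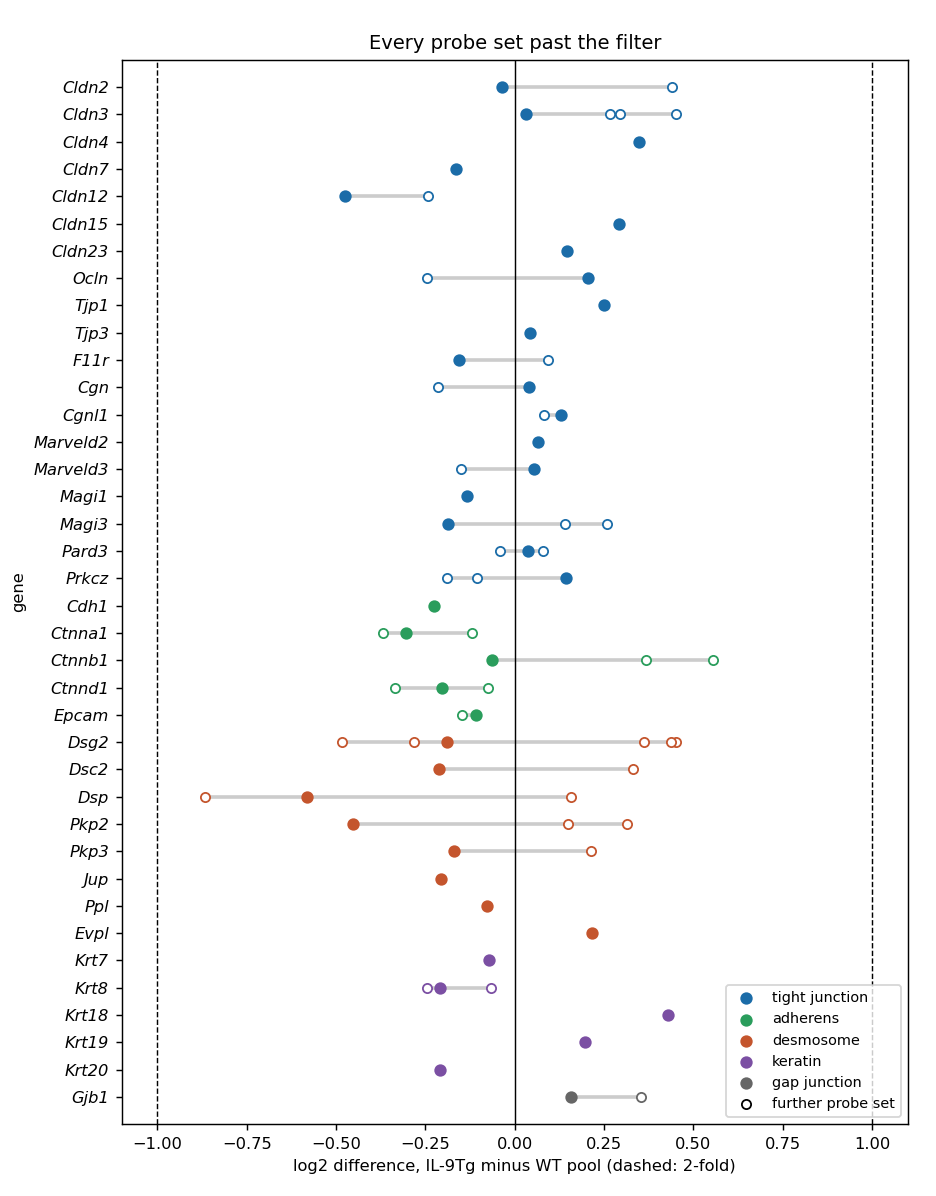
Log2 difference, IL-9Tg minus WT pool, of all 75 probe sets past the filter, by gene. Filled points represent the gene, open points are its further probe sets, grey lines join the lowest and the highest, and dashed lines mark 2-fold. No probe set reaches 2-fold, and in Dsg2, Dsc2, Dsp, Pkp2 and Pkp3 the probe sets lie on both sides of 0.

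Dsp held the largest difference of any member. Desmoplakin, the plakin that joins the desmosomal plaque to keratin filaments, was lower in the IL-9Tg pool with 2 of its 3 probe sets. The probe set that represents it read 3094 in the IL-9Tg pool and 4631 in the WT pool, a difference of -0.58. A further Dsp probe set read 1536 in the IL-9Tg pool and 2802 in the WT pool, a difference of -0.87, and the third read 604 in the IL-9Tg pool and 541 in the WT pool, a difference of 0.16. The first 2 were lower in the IL-9Tg pool and the third lay slightly the other way. The 250 bases before the Dsp start, from RefSeq and with GC boxes on either strand in capitals, are shown because Dsp was the furthest member from 0. The window holds 4 GC boxes and none of the other motifs.
Dsp (GRCm38.p6, chr13:38151044-38151293, plus strand): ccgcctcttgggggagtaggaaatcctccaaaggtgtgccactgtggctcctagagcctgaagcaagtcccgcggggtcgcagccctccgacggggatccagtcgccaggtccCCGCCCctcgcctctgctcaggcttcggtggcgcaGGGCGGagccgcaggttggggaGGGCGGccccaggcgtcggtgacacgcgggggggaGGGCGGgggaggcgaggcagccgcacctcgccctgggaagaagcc

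Dsg2, Dsc2, Pkp2 and Pkp3 also had probe sets on both sides of 0. Dsg2, the desmosomal cadherin desmoglein 2, has 6 probe sets past the filter, of which 3 were lower in the IL-9Tg pool and 3 were higher. The lower ones read 3525, 2699.8 and 236 in the IL-9Tg pool, against 4024, 3285 and 330.4 in the WT pool, differences of -0.19, -0.28 and -0.48. The higher ones read 1177, 644 and 191 in the IL-9Tg pool, against 916, 471 and 141 in the WT pool, differences of 0.36, 0.45 and 0.44. These 6 values give Dsg2 no direction. Dsc2, desmocollin 2, its cadherin partner, read 1234 and 1058 in the IL-9Tg pool, against 1429 and 841 in the WT pool, differences of -0.21 and 0.33. Pkp2, plakophilin 2 of the plaque, read 856, 559.5 and 125 in the IL-9Tg pool, against 1173, 450.3 and 113 in the WT pool, differences of -0.45, 0.31 and 0.15. Pkp3, plakophilin 3, differed by -0.17 and 0.21. Neither Dsc2, Pkp2 nor Pkp3 therefore has a settled direction.

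Jup, Ppl and Evpl, genes of the plaque, had a single probe set each. Jup, plakoglobin, which serves both desmosomes and adherens junctions, read 708 in the IL-9Tg pool and 817 in the WT pool, a difference of -0.21. Ppl, periplakin, read 194 in the IL-9Tg pool and 205 in the WT pool, a difference of -0.08. Evpl, envoplakin, the partner of periplakin in the cornified envelope, read 395 in the IL-9Tg pool and 340.2 in the WT pool, a difference of 0.22. It was the only desmosome gene above 0 by its representing probe set, while Dsg2, Dsc2, Dsp, Pkp2 and Pkp3 had further probe sets above 0.

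The spread between probe sets of a gene was wider in the desmosome genes than over the array. Of the desmosome genes 5 had more than 1 probe set above the filter. All 5 had probe sets on both sides of 0, and the SD of the difference between probe sets of a gene was 0.42. It was 0.19 over 11 tight junction genes, 0.20 over 4 adherens genes and 0.23 over 4965 genes of the whole array, of which 54.3% had probe sets on both sides of 0. In all 5 desmosome genes the brightest probe set lay below the mean of the others, by a median of -0.38. The same held for 58.7% of all genes, with a median of -0.06. These figures describe 2 arrays and were not tested. As a sign of RNA integrity, the ratio of the probe sets at the 3′ end to those at the 5′ end was 1.33 in the IL-9Tg pool and 1.61 in the WT pool for actin, and Gapdh gave 1.08 in the IL-9Tg pool and 1.22 in the WT pool. For the transferrin receptor it was 4.70 in the IL-9Tg pool and 3.68 in the WT pool, and for pyruvate carboxylase 3.87 in the IL-9Tg pool and 3.60 in the WT pool. The controls thus differed in both directions, and their part in the desmosome values was not tested.

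Keratins form filaments from a type I and a type II protein, and Krt8 with Krt18 is the basic pair of simple epithelia. Krt18 had the highest difference among the genes' representing probe sets, at 2618 in the IL-9Tg pool and 1944 in the WT pool, a difference of 0.43 or 1.35-fold higher from its only probe set. Its partner Krt8 had 3 probe sets, which read 14562, 12913 and 11476 in the IL-9Tg pool, against 16833, 13532 and 13595 in the WT pool. All 3 were lower in the IL-9Tg pool, with differences of -0.21, -0.07 and -0.24, so the genes of this pair lay on opposite sides of 0. Krt19, a further type I keratin of intestinal epithelium, read 8095 in the IL-9Tg pool and 7069 in the WT pool, a difference of 0.20. Krt20, the type I keratin of differentiated villus cells, read 9689 in the IL-9Tg pool and 11199.7 in the WT pool, a difference of -0.21. Krt7, a further type II keratin of simple epithelia, read 537 in the IL-9Tg pool and 564 in the WT pool. Among the type I keratins, Krt18 and Krt19 were thus higher and Krt20 lower. Krt18 is also a known marker of tuft cells in mouse gut, and the 8 tuft cell markers, all past the filter but 5 of them through the IL-9Tg pool alone, summed to 2081 in the IL-9Tg pool and 695 in the WT pool, with 5 of them higher by 2-fold, against 0.607% of all genes past the filter. Their part in the Krt18 value was not tested.

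Krt8 and Krt18 are neighbours on chromosome 15 with 0 protein-coding genes between them, and their promoters are shown because the pair lay on opposite sides of 0. Each line gives the 250 bases before the start from RefSeq, and capitals mark the E-box, of which each window holds 1, while neither holds the other motifs.
Krt18 (GRCm38.p6, chr15:102027966-102028215, plus strand): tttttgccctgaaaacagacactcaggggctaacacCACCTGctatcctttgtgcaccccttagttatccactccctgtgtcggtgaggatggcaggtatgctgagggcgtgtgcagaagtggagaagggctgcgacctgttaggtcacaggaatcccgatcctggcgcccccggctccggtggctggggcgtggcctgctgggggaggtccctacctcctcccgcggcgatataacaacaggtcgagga
Krt8 (GRCm38.p6, chr15:102004343-102004592, minus strand): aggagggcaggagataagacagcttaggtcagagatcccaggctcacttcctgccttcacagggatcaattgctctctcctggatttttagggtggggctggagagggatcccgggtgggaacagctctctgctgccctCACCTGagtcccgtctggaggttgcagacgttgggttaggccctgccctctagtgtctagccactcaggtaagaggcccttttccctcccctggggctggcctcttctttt

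Gjb1, connexin 32 of gap junctions, was higher in the IL-9Tg pool with both probe sets. It read 808 and 352 in the IL-9Tg pool, against 724 and 276 in the WT pool, differences of 0.16 and 0.35.

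Lists of other junction genes also stayed under 2-fold. Of 22 further tight junction genes past the filter, 2 were higher by 0.3 and 2 lower, with a median of 0.02. They included Igsf5 (JAM4, at 1201 in the IL-9Tg pool and 937 in the WT pool, 0.36) and Rab13, a small GTPase of junction traffic (133 in the IL-9Tg pool and 174 in the WT pool, -0.38). The other higher gene, Pard6a, at 88.3 in the IL-9Tg pool and 68.5 in the WT pool, passed the filter through the IL-9Tg pool alone. The other lower gene, Ybx3, had probe sets at -0.31 and 0.35. Of 11 further adherens genes 0 passed 0.3, with a median of 0.03. Of 8 further desmosome and keratin genes past the filter, 6 lay above 0 and 2 below, with a median of 0.08. Among them Krt23, a type I keratin, had the highest difference, at 175 in the IL-9Tg pool and 103 in the WT pool, 0.77. Pkp4, a p120-related plaque protein, and Perp, a desmosome membrane protein, differed by -0.32 and -0.28 and were the 2 below 0. In the list of hemidesmosome and polarity genes, Lamb3, a chain of laminin-332 in the basement membrane, read 89.4 in the IL-9Tg pool and 179 in the WT pool. Its intensities differ by 2.00-fold, and its log2 difference of -0.995 was just under the threshold. Lama3, another chain of the same laminin, differed by -0.02, and Itga6 and Itgb4, the integrin pair of the hemidesmosome, by -0.16 and -0.10 (these 3 were chosen after their values were seen). Of 14 genes of the actin and myosin belt beside the junctions 0 were higher by 0.3 and 2 were lower, Shroom3 (-0.36) and Myh14 (-0.32), around a median of 0.01. Mylk, the kinase that contracts this belt and opens tight junctions, read 3960.0 in the IL-9Tg pool and 4589 in the WT pool, and its 3 probe sets lay between -0.28 and 0.03. The tissue also held smooth muscle, with all 8 of its listed markers past the filter, so the epithelial share of the Mylk signal is unknown. Prss8, prostasin, a membrane protease that acts on barrier function, differed by 0.39, at 353 in the IL-9Tg pool and 269.8 in the WT pool. In the list of other gap junction genes 5 passed the filter, with Gja4 (65.1 in the IL-9Tg pool, 85.0 in the WT pool) through the WT pool alone. Of these 5, 4 lay below 0, with Panx1, a pannexin rather than a connexin, the lowest at -0.44.

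Markers of tuft cells, mast cells and B cells had medians further from 0 than any junction class. So did those of adipocytes, of enteric neurons and glia, and of stratified epithelium. In the last list the 2 markers past the filter, Krt5 and Krt10, had a median of 0.25. Of the 8 tuft markers past the filter, 5 passed through the IL-9Tg pool alone. The 9 mast cell markers summed to 5769 in the IL-9Tg pool and 1154 in the WT pool, with 6 past the filter, 2 of them through the IL-9Tg pool alone, and 4 of the 6 higher by 2-fold. Mcpt1, a chymase of mucosal mast cells known in mouse to loosen epithelial junctions, read 2586 in the IL-9Tg pool and 378 in the WT pool. In the B cell list, 6 named markers summed to 598 in the IL-9Tg pool and 1022 in the WT pool, and the 5 past the filter, 3 of them through the WT pool alone, were below 0. The 4 adipocyte markers on the array summed to 850.3 in the IL-9Tg pool and 611 in the WT pool, and the 3 past the filter, 1 of them through the IL-9Tg pool alone, had a median of 0.44, with Adipoq, adiponectin, at 91.9 in the IL-9Tg pool and 14.3 in the WT pool. The 5 neuron and glia markers on the array summed to 333 in the IL-9Tg pool and 399.8 in the WT pool, and the 2 past the filter were both lower, with a median of -0.43. Smooth muscle markers had a median of 0.12, enterocyte markers one of -0.09 and goblet cell markers one of 0.09, with 3 of 7 goblet genes higher by 0.3. The part of such shifts in the junction values was not tested.

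**Figure D4:**
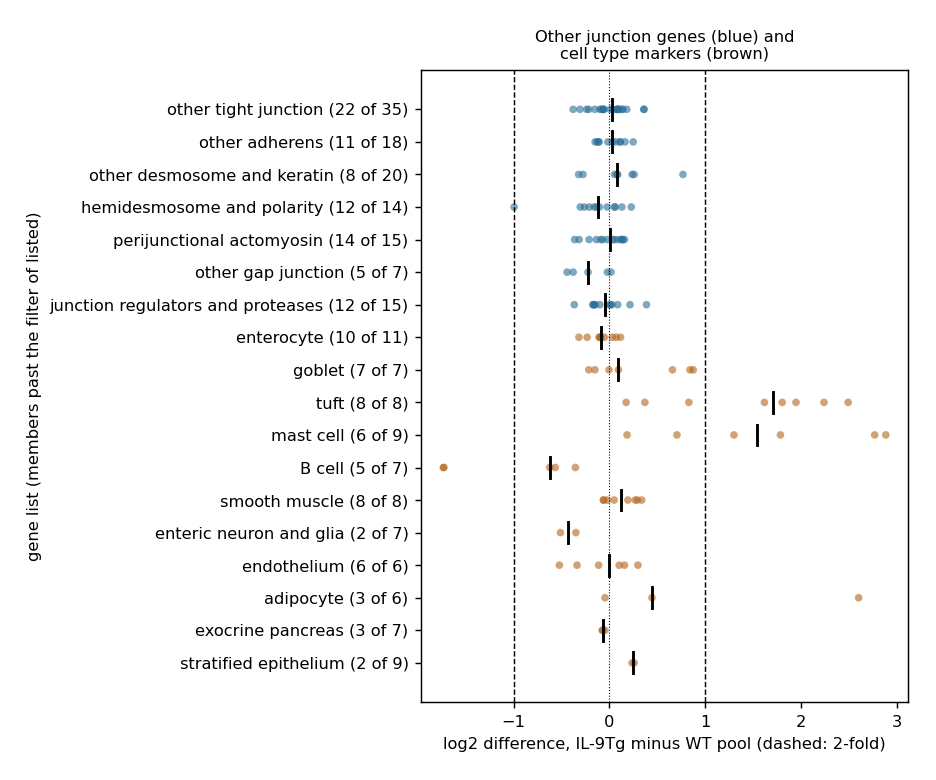
Log2 difference, IL-9Tg minus WT pool, of genes past the filter in the lists of other junction genes (blue) and of cell type markers (brown), with the list median as a black bar and 2-fold as dashed lines. The junction lists have medians between -0.22 and 0.08, while the tuft and mast cell lists have medians of 1.71 and 1.54. Of their genes past the filter, 5 of 8 tuft and 2 of 6 mast cell genes passed through the IL-9Tg pool alone. A filter met by 1 pool favours genes that are high in that pool.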

How the data were processed

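Total RNA, 10 µg for each pool of 3 mice, was amplified, labelled with biotin and put on 1 Affymetrix mouse array per genotype, per the labels' protocols. The deposited intensities are on a linear scale. RMA, which corrects background and equalises the distributions of arrays, is the tool given, with no version, in the submitters' processing notes, and a build is not given in the sources used here. The median intensity was 78.7 for IL-9Tg and 78.3 for WT. The number of arrays limits the precision.

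Of 45101 probe sets, 34958 carried 1 gene symbol in the platform annotation, 932 several and 9211 none, and only the first were used. RefSeq symbols (GRCm38.p6) led to 0 updates. Values were computed with Python 3.11.15 and pandas 2.3.3 as log2(intensity + 1), and the procedure was tried on simulated data. There all probe sets of a changed gene shifted by the same amount, so the choice of probe set was not put to the test. With 1 array per group nothing was tested, and lists are described by counts and medians beside all genes. All members could be named with every probe set past the filter; from each other list up to 4 genes past 2-fold or, where fewer passed, the 4 furthest from 0. Genes outside this rule are named as such. Members, classes and lists were chosen with earlier results of these data known. Promoters of 28 of the 41 members were in the RefSeq table. The alternatives were the mean over probe sets, leaving out probe sets that may match other transcripts, other pseudocounts, filters and scaling.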

Additional observations from a re-analysis of the deposited data

How the results depend on the processing

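Each median, gap and count of the classes was recomputed under 9 alternatives, and 77 of 81 such values stayed close to the reported ones. A median or gap was called close when it moved by less than 0.23, the probe set SD over the whole array, and a count by a limit on its ratio. That tolerance is about as wide as the gap itself (0.24), so the ranges below say more than this count. Some of these values could not move. Requiring both values past the filter changed no member value, because all 38 members had passed in both pools. Subtracting a common median from all differences could not change the gap. None of the members past the filter reached 2-fold under any alternative. The gap between the tight junction median and that of the adherens, desmosome and keratin genes stayed above 0, between 0.12 and 0.25, and the adherens median stayed below 0, between -0.21 and -0.12. The desmosome median ran from -0.21 to 0.01. With the mean over probe sets, 2 members were lower by 0.3 in place of 4. Without probe sets that may match other transcripts (suffix _x_at, _s_at or _a_at), which left 29 members, 4 were higher by 0.3 and 1 was lower, and the keratin median was 0.20. Pkp2 changed sign under both, to 0.0024 and 0.31. The first value, near 0, averages all 3 of its probe sets past the filter, and the second is that of a probe set without such a suffix. Of the 38 members, 26 kept their sign under all alternatives that gave them a value. Only 22 of the 38 had several probe sets past the filter, so the choice among probe sets could not change the sign of the rest. Dsp counts as kept although 1 of its 3 probe sets lay above 0. No paired analysis was possible because each genotype has 1 array. No detection calls were used, so the smallest signal above background is unknown.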
